A study of Drosophila melanogaster with 12 samples.

Results

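Repeated sequences of the Drosophila melanogaster genome were ranked by 2 histone marks, H3K9me3 and H3K36me3, in control S2 cells, an established line of embryonic origin. The control cells had received double-stranded RNA against GFP for 5 days, and the study's other cells received RNA against KDM4A for the same time. The members are the 4 control chromatin immunoprecipitation libraries, 2 with an antibody to H3K9me3 and 2 with one to H3K36me3, out of 12 libraries in all. All cells grew at the same temperature and in the same medium per the labels, were fixed for 10 min with 1% paraformaldehyde, and were sheared in 30 sonication cycles. Each precipitation used 5 µg of antibody.

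The deposited tables give 1 mean enrichment for each mark and treatment, not a value per library. Libraries are numbered 3 and 4 in each group, nothing says whether they came from separate cultures, and which of them entered a mean is not stated. There is therefore no replicate error and no known depth behind any value below, and no test could be made. A row is a repeat family or a part of one. Of 203 rows of the H3K9me3 table, 199 had a partner in the H3K36me3 table, 185 by an identical name and 14 after removal of a word that the H3K9me3 table adds to tandem repeats. The scaling of one antibody against the other is unknown. The marks were therefore set side by side by rank, from 1 for the highest of the 199 rows, or by percentile, from 0 for the lowest to 100 for the highest. A row's value is an average over all copies of a repeat, so a few copies with much of a mark and many copies with little of it cannot be told apart. The tables list no protein-coding gene outside the histone array, so the identity of the line could not be checked against marker genes.

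H3K9me3 is the histone mark of constitutive heterochromatin and is bound by HP1 proteins, and in flies it covers pericentromeric satellites and transposons. H3K36me3 is placed behind elongating RNA polymerase II by the Set2 methyltransferase and marks the bodies of transcribed genes. KDM4A, the target of the other arm, belongs to a family of Jumonji demethylases that act on both residues.

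In control cells, H3K9me3 enrichment had a median of 2.30 over the 199 rows, with quartiles of 1.45 and 3.11. H3K36me3 had a median of 0.898, with quartiles of 0.670 and 1.29. The extremes lay at satellites and telomeres. H3K9me3 ran from 0.172 at the AAAAG satellite to 8.19 at the AAGGAG satellite, and H3K36me3 from 0.037 at the AATAG satellite to 3.56 at the telomeric TART_B1. The order of the rows was only partly shared. Spearman's rho between the marks was 0.33 across the 199 rows, a description without a p, since rows are not independent. Both antibodies may also draw on the same input libraries, copy numbers and repeat library, which the sources used here do not state.

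**Figure D1:**
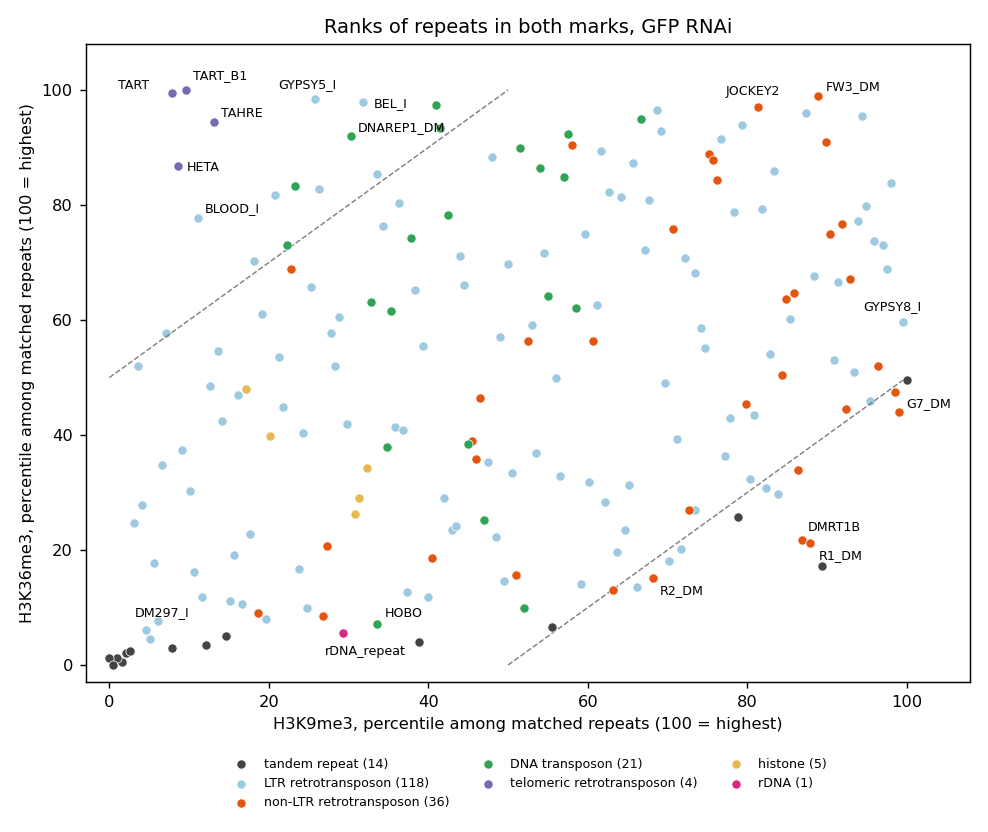
Percentile rank of each of 199 repeats in H3K9me3 (x axis) and H3K36me3 (y axis) in GFP RNAi cells, 1 point per row, coloured by the type in the tables. Dashed lines mark a gap of 50 percentile points. The 4 telomeric rows sit at the upper left, 9 satellites at the lower left, and R1_DM and DMRT1B at the lower right.

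The distance between a row's 2 percentiles had a median size of 23.7 points. The same mark moved far less between treatments. Set against GFP RNAi cells, the percentile of a row in KDM4A RNAi cells differed by a median of 2.53 points in H3K9me3 and 2.02 points in H3K36me3. A distance of at least 25 points separated the marks at 96 rows, but separated the treatments at 3 rows in H3K9me3 and 2 in H3K36me3. These treatments are not replicates, and their shift is given as a scale only. A distance of 50 points was used to call a row. By this rule 15 rows ranked higher in H3K9me3 (7.54% of 199) and 17 ranked higher in H3K36me3 (8.54%). The balance depended on the scale: with log2 levels over each mark's median and a difference of at least 1, the counts were 9 for H3K9me3 and 32 for H3K36me3. The last rows inside the line were AAGGAG and G_DM on the H3K9me3 side, at 50.5 and 50 points, and GYPSY12_I lay just outside at 49.5. On the H3K36me3 side, MDG1_I and POGON1 were inside, both at -50.8, and STALKER2_I was outside at -48.5.

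The types of repeat took different places in the 2 orders. Telomeric retrotransposons had a median percentile of 9.09 in H3K9me3 and 97.0 in H3K36me3, over 4 rows. DNA transposons, most of which move by cutting and pasting, were at 42.4 and 74.2, over 21 rows. Non-LTR retrotransposons, which copy themselves through RNA and lack terminal repeats, leaned the other way, at 76.0 and 49.0 over 36 rows. LTR retrotransposons, the retrovirus-like elements that make up most of the table, stood in the middle of both orders, at 50.3 and 52.0 over 118 rows. Tandem repeats were low in both, at 9.97 and 3.28 over 14 rows. Over all 199 rows 97 had the higher percentile in H3K9me3 (48.7%) and 99 the lower (49.7%). Among non-LTR retrotransposons 25 had the higher percentile in H3K9me3 and 10 the lower, whereas among DNA transposons 4 had the higher and 17 the lower. The 15 of 199 rows called for H3K9me3 were 7 of the 36 non-LTR retrotransposons, 5 of the 118 LTR retrotransposons and 3 of the 14 satellites. The 17 called for H3K36me3 were 8 of the 118 LTR retrotransposons, 5 of the 21 DNA transposons and the 4 telomeric rows.

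**Figure D2:**
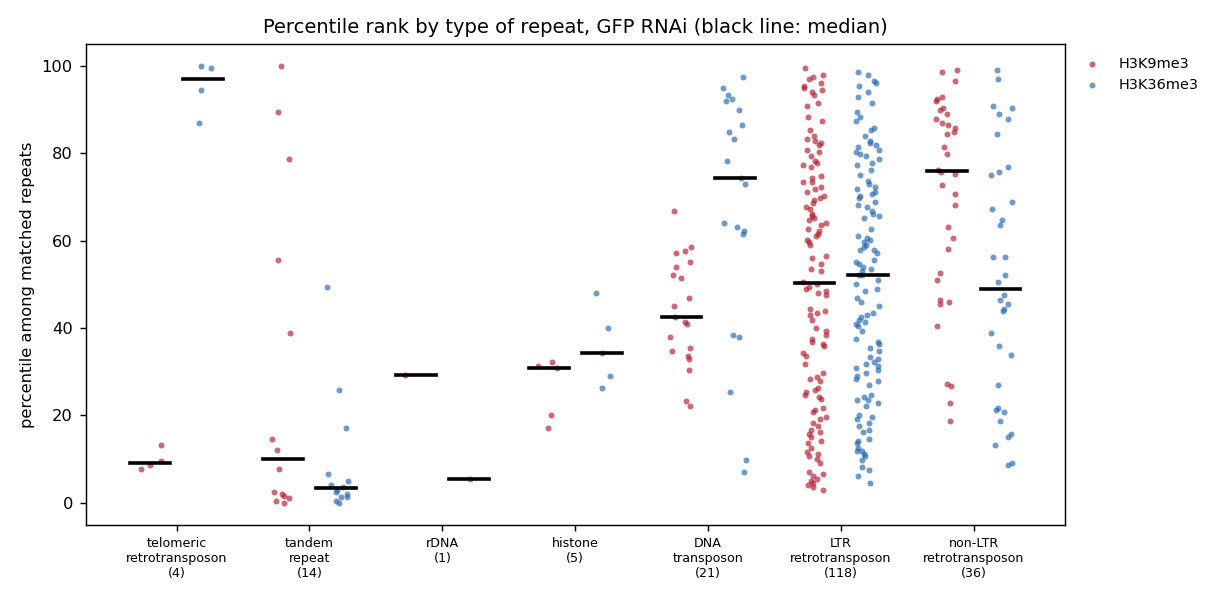
Percentile ranks in GFP RNAi cells by type of repeat, 1 point per row, H3K9me3 left (red) and H3K36me3 right (blue) within each type, with the median as a black line and the number of rows in brackets. Telomeric rows lie between 7.83 and 13.1 in H3K9me3 and between 86.9 and 100 in H3K36me3.

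Telomeric retrotransposons maintain fly chromosome ends in place of telomerase. All 4 rows were called for H3K36me3, and they held the 4 largest distances of that direction. TART had an enrichment of 0.774 in H3K9me3, rank 183.5, and 3.40 in H3K36me3, rank 2. TART_B1, a TART subfamily, was at 0.868 (rank 180) in H3K9me3 and 3.56 (rank 1) in H3K36me3. TAHRE was at 0.939 (rank 173) and 2.07 (rank 12) in the same order of marks. HeT-A, spelled HETA in the tables and the most abundant of these elements in flies, was at 0.798 (rank 182) and 1.60 (rank 27). In H3K9me3 the 4 rows lay close together, with the highest value 1.21 times the lowest. In H3K36me3 they spread, and TART_B1 was 2.23 times and TART 2.13 times HeT-A.

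Of the elements that insert into ribosomal DNA, R1_DM and R2_DM ranked high in H3K9me3 and low in H3K36me3, while the ribosomal DNA row itself was in the lower part of both orders. R1 and R2 are non-LTR retrotransposons that insert at fixed sites of the 28S ribosomal RNA gene. R1_DM was at 3.57 in H3K9me3, rank 25, and 0.638 in H3K36me3, rank 157. R2_DM was at 2.81 (rank 64) and 0.580 (rank 169), and both rows were called for H3K9me3. R1-2_DM, a relative of R1, had nearly the H3K9me3 level of R1_DM (3.46, rank 32) and stood higher in H3K36me3 (0.904, rank 99). The ribosomal DNA row ranked lower than these 3 in both marks, at 1.67 (rank 141) in H3K9me3 and 0.330 (rank 188) in H3K36me3. Within H3K9me3, R1_DM was 2.14 times, R1-2_DM 2.07 times and R2_DM 1.69 times the ribosomal DNA row. Within H3K36me3 the same ratios were 1.93, 2.74 and 1.76.

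The 5 replication-dependent histone genes lie together in a tandem array, and their values differed little. They ran from 1.19 at His1, the linker histone, to 1.75 at His2B in H3K9me3, and from 0.680 at His3 to 0.881 at His1 in H3K36me3. Their median percentiles were 30.8 and 34.3, and none was called in either direction. His1 and His4 stood lowest of the 5 in H3K9me3 (ranks 165 and 159) and highest in H3K36me3 (ranks 104 and 120).

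Satellites are long arrays of short units, most of them in pericentromeric heterochromatin. The name of a satellite in the tables is its repeat unit, read 5′ to 3′, except for 1.686 and 1.688, which are named by buoyant density. Within the 14 tandem repeats both marks gave nearly the same order, with a rho of 0.97 over the 14 rows. AAGGAG was highest of the 14 in both marks, and AAAAG was lowest in H3K9me3 and AATAG in H3K36me3. Of the 14, 9 were among the 50 lowest rows of both marks, a place held by 24 of all 199 rows (12.1%). In H3K9me3, 6 satellites lay below the lowest row of any other type (Gypsy1-LTR_DM, 0.370). In H3K36me3, 9 lay below the lowest row of any other type (DM297_LTR, 0.279). Rows at the bottom of both orders have ranks close together by construction, so their small distances say nothing of the marks.

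The lowest satellites were AAAAG (0.172 in H3K9me3, 0.071 in H3K36me3), AATAG (0.176 and 0.037), a 12-base unit made of AAGAG followed by AAGAGAG (0.180 and 0.071), 1.686 (0.200 and 0.048) and AAGAG (0.205 and 0.110). AAGAG is one of the abundant satellites of this species. AAGAGG was at 0.351 and 0.143. These values were low with both antibodies and the depth over short units is unknown, so no lack of H3K9me3 is read from them. The A+T-only unit AATAT was at 0.928 (rank 175) and 0.230 (rank 192), and the 1.688 satellite of the X chromosome at 0.967 (rank 170) and 0.280 (rank 189). AAACAC, which contains C, was at 0.774 (rank 183.5) and 0.159 (rank 193).

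The other 5 satellites had higher percentiles in H3K9me3 than in H3K36me3, by 34.8 to 72.2 points. The dodeca satellite, a 12-base unit with 8 G or C, was at 3.17 in H3K9me3 (rank 43) and 0.673 in H3K36me3 (rank 148). The undeca satellite has the dodeca unit less 1 G, which leaves 7 G or C in 11 bases. It was at 3.67 (rank 22) and 0.607 (rank 165), the largest distance of any row toward H3K9me3, 72.2 points. AAGAC was at 2.46 (rank 89) and 0.359 (rank 186), 49.0 points apart, and AACAC at 2.04 (rank 122) and 0.268 (rank 191), 34.8 points apart. AAGGAG was at 8.19 (rank 1) and 0.896 (rank 101), the middle of the H3K36me3 order. AAGGAG and AAGAGG have the same base counts, and each is a rotation of the other read backward. AAGGAG was 23.3 times AAGAGG in H3K9me3 and 6.27 times in H3K36me3 in GFP RNAi cells. In KDM4A RNAi cells the H3K9me3 values were 1.37 at AAGGAG and 0.237 at AAGAGG, and the H3K36me3 values 0.911 and 0.225.

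The places of 3 of these satellites were not held in the other arm. In KDM4A RNAi cells AAGGAG ranked 149 in H3K9me3, against 1 in GFP RNAi cells. AAGAC ranked 166, against 89 in GFP RNAi cells, and AACAC ranked 177, against 122. The distance between marks at AAGGAG was -27.8 points in KDM4A RNAi cells and 50.5 points in GFP RNAi cells. The dodeca and undeca satellites stayed high, at ranks 32 and 4 in KDM4A RNAi cells, against 43 and 22 in GFP RNAi cells. No replicate values are at hand to weigh these shifts, and the depth over short units is unknown.

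Among non-LTR retrotransposons the families differed in which mark they ranked high in. The 8 rows of the G family all lay in the upper part of the H3K9me3 order, with a median percentile of 82.3, and at a median of 44.7 in H3K36me3. G7_DM was at 4.99 in H3K9me3, rank 3, and 0.834 in H3K36me3, rank 112. G2_DM was at 3.52 (rank 28) and 0.730 (rank 132), and G_DM at 2.66 (rank 74) and 0.554 (rank 173). These 3 of the 8 rows were called for H3K9me3, against 15 of all 199 rows. G4_DM had the lower percentile in H3K9me3, at 2.53 (rank 84) and 1.74 (rank 20), and G5A_DM was high in both (ranks 21 and 19). The 3 RT1 rows had a median percentile of 96.5 in H3K9me3 and 47.5 in H3K36me3. DMRT1A was at 4.93 (rank 4) and 0.880 (rank 105), DMRT1C at 4.42 (rank 8) and 0.912 (rank 96), and DMRT1B at 3.54 (rank 27) and 0.641 (rank 156), and DMRT1A and DMRT1B were called for H3K9me3. All 4 BS rows also had the higher percentile in H3K9me3, against 25 of the 36 non-LTR rows. The BS rows had a median distance of 30.6 points, and none reached 50.

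Some rows of the F, Doc and jockey families were high in both marks. FW3_DM, of the F family, was at 3.67 in H3K9me3 (rank 23) and 3.02 in H3K36me3 (rank 3), the highest H3K36me3 value outside the telomeric rows. FW2_DM (ranks 49 and 25), DOC2_DM (48 and 32) and DOC4_DM (50 and 23) were also among the top rows of both marks. In H3K9me3 these were the last places of the 50 highest. Their H3K9me3 ranks in KDM4A RNAi cells were 59, 49 and 61 in the same order. Relatives within a family could be far apart. DOC6_DM was at 1.38 (rank 154) and 1.19 (rank 62.5), with a distance of -46.2 points, and DOC5_DM was in the lower part of both orders (2.20, rank 109, and 0.787, rank 122). JOCKEY2 was at 3.23 (rank 38) and 2.36 (rank 7), while Jockey was at 1.23 (rank 162) and 0.479 (rank 181). JOCKEY2 was thus 2.62 times Jockey in H3K9me3 and 4.94 times in H3K36me3. FW3_DM was 1.55 times FW in H3K9me3 and 3.19 times in H3K36me3. The I element, I_DM, was in the lower part of both orders (1.63, rank 145, and 0.629, rank 158).

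DNA transposons were absent from the 50 highest rows of H3K9me3 but not from the top of H3K36me3. Their H3K9me3 values lay between 1.33 and 2.79, and 0 of 21 rows were among the 50 highest of the mark, which hold 25.1% of all rows. Their H3K36me3 values lay between 0.400 and 2.40, and 10 of 21 were among the 49 highest (24.6% of all rows; a tie fell on the line). TC1_DM, of the Tc1/mariner group, was at 2.07 in H3K9me3 (rank 118) and 2.40 in H3K36me3 (rank 6). DNAREP1_DM, a short element that is very abundant in this genome, was at 1.68 (rank 139) and 1.80 (rank 17). FB4_DM, a foldback element with long inverted repeats, was at 1.40 (rank 153) and 1.50 (rank 34). TC1-2_DM (2.08 and 1.91) and POGON1 (1.33 and 1.27) completed the 5 rows called for H3K36me3. Of the 5 Transib rows 4 had the lower percentile in H3K9me3, and Transib5 the higher (2.24, rank 106, and 0.672, rank 149). PROTOP, PROTOP_A and PROTOP_B, relatives of the P element, had the lower percentile in H3K9me3 at all 3 rows, with PROTOP_B at ranks 97 and 21. Of all 21 DNA transposons 17 had the lower percentile in H3K9me3. The Transib and PROTOP counts are near that share, so neither is read as a trait of its family. HOBO and BARI_DM stood low in H3K36me3, at 0.400 (rank 185) and 0.488 (rank 179.5), with H3K9me3 at 1.85 and 2.35.

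**Figure D3:**
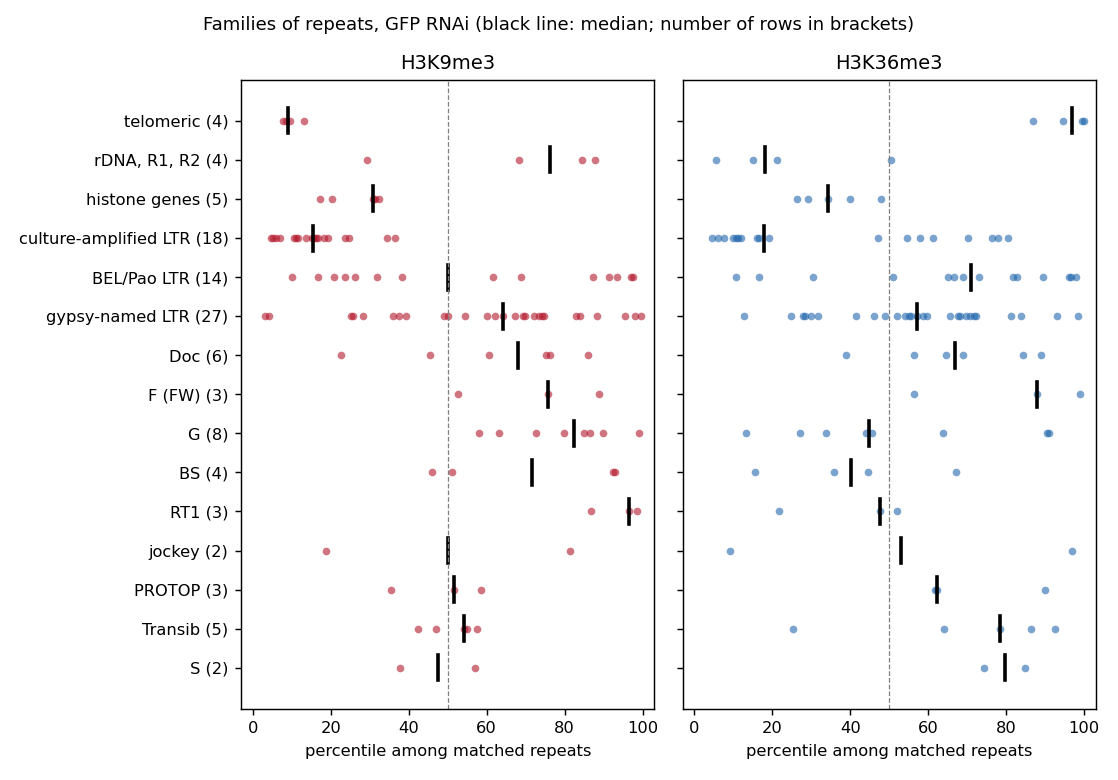
Percentile ranks of the rows of 15 families or lists in GFP RNAi cells, H3K9me3 left and H3K36me3 right, 1 point per row, with the median as a black line and the number of rows in brackets. The 18 rows of culture-amplified LTR elements all lie under percentile 50 in H3K9me3, while 7 of them lie above it in H3K36me3. Of all 199 rows 99 lie above it in each mark.

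LTR families reported to multiply in cultured fly cells (DM297, DM412, DM1731, DM176, copia, mdg1, mdg3, roo and blood) were low in H3K9me3. All 18 of their rows were in the lower part of the order, under percentile 50, and 16 were among the 50 lowest rows (25.1% of all rows). In H3K36me3 they divided. Of the 18, 10 were among the 50 lowest of that mark as well, including both rows of DM297 and all 3 of DM412. DM297_I was at 0.661 in H3K9me3 (rank 190) and 0.332 in H3K36me3 (rank 187). DM412_I was at 0.923 (rank 176) and 0.523 (rank 175.5), and DM176 at 0.968 (rank 169) and 0.510 (rank 177). Another 7 of the 18 were above percentile 50 in H3K36me3, as were 99 of all 199 rows. BLOOD_I was at 0.882 (rank 177) and 1.39 (rank 45), MDG1_I at 0.759 (rank 185) and 0.966 (rank 84.5), and MDG3_DM at 1.22 (rank 163) and 1.22 (rank 60). These 3 of the 18 rows were called for H3K36me3, against 17 of all 199 rows. Both rows of DM1731 had distances short of the line, DM1731_I at -43.9 points and DM1731_LTR at -41.9.

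BEL/Pao elements, a separate lineage of LTR retrotransposons, covered nearly the whole of both orders. DIVER2_I was at 4.53 in H3K9me3 (rank 6) and 1.19 in H3K36me3 (rank 62.5), and BATUMI_I at 4.45 (rank 7) and 1.27 (rank 54.5). BEL_I was at 1.74 (rank 136) and 2.69 (rank 5), and BEL_LTR at 1.49 (rank 147) and 1.50 (rank 35). DIVER_I was at 1.29 (rank 158) and 1.48 (rank 37), so that DIVER2_I was 3.52 times DIVER_I in H3K9me3 and 0.806 times in H3K36me3. BEL_I, BEL_LTR and DIVER_I were called for H3K36me3, 3 of the 14 rows, against 17 of all 199 rows. BEL_I and BEL_LTR are parts of 1 element. ROOA_I was high in both marks (3.55, rank 26, and 2.21, rank 9). ROO_I, of the related roo element, was low in both (1.08, rank 166, and 0.498, rank 178). Of the 14 rows 7 were above percentile 50 in H3K9me3 and 11 in H3K36me3, against 99 of all 199 rows in each mark.

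The 27 rows named gypsy, after the founding element of the lineage, had a median percentile of 64.1 in H3K9me3 and 57.1 in H3K36me3. GYPSY8_I was at 6.50 in H3K9me3, the highest of any transposon among the matched rows, and 0.996 in H3K36me3 (rank 81). GYPSY7_I was high in both (4.73, rank 5, and 1.51, rank 33). GYPSY12_LTR was the only gypsy row called for H3K9me3 (3.42, rank 33, and 0.699, rank 140), against 15 of all 199 rows. GYPSY12_I, of the same element, was just short of the line at 49.5 points. GYPSY5_I was the only gypsy row called for H3K36me3 (1.48, rank 148, and 2.86, rank 4), against 17 of all 199 rows. Gypsy1-LTR_DM and Gypsy1-I_DM had the lowest gypsy values of H3K9me3, 0.370 and 0.621, with H3K36me3 at 0.668 and 0.684. The other LTR rows called for H3K9me3 were TABOR_LTR, MICROPIA_LTR, CIRCE and GTWIN_I, at distances of 51.5 to 52.5 points, and STALKER4_I was called for H3K36me3 at -51.8.

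**Figure D4:**
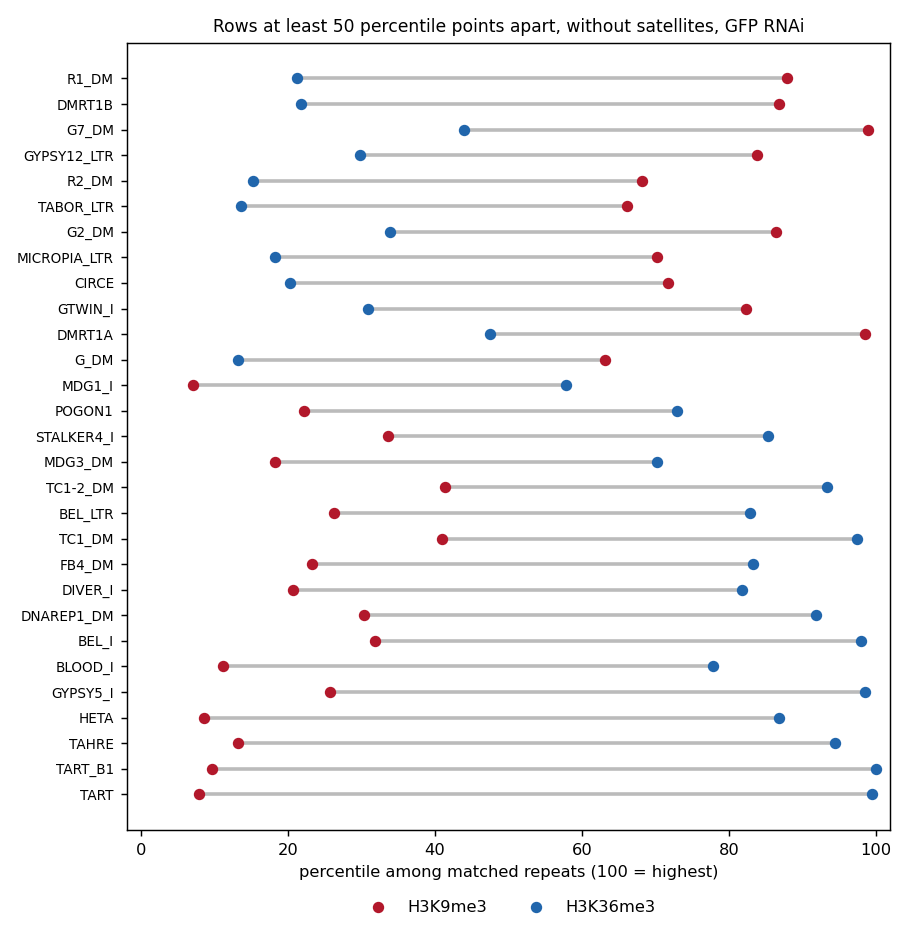
The 29 rows other than satellites whose percentiles in the marks lie at least 50 points apart in GFP RNAi cells, H3K9me3 in red and H3K36me3 in blue, ordered by the distance. R1_DM heads the rows called for H3K9me3 and TART those called for H3K36me3.

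The top rows of both orders (the 50 highest of H3K9me3 and the 49 highest of H3K36me3) shared 17 rows (8.54% of 199). These are 17 of the 50 highest of H3K9me3, while the top of H3K36me3 holds 24.6% of all rows. The 17 were 10 of the 118 LTR and 7 of the 36 non-LTR retrotransposons. They included Bica_I (4.08, rank 12, and 2.18, rank 10), Bica_LTR (3.20 and 2.01), JOCKEY2, FW3_DM, ROOA_I, G5A_DM, INVADER4_I (3.14 and 1.79) and both rows of INVADER6. At the opposite corners 3 rows were among the top of H3K9me3 and the 50 lowest of H3K36me3 (1.51%). These were R1_DM, DMRT1B and the undeca satellite, and the 50 lowest of H3K36me3 hold 25.1% of all rows. A further 7 were among the 50 lowest of H3K9me3 and the top of H3K36me3 (3.52%), the 4 telomeric rows with BLOOD_I, DIVER_I and FB4_DM.

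In LTR elements the internal part, which encodes the proteins, more often had the higher value than the terminal repeats, which hold the promoter. In H3K9me3 the terminal row was above the internal row at 16 of 51 elements (31.4%), with a median log2 ratio of terminal to internal of -0.23. In H3K36me3 it was above at 17 of 51 (33.3%), with a median of -0.10. The 5 elements with the largest differences were listed for each mark, out of 51, and COPIA2 was in both sets. Sets of 5 among 51 share few members in any case, so nothing is read from this overlap. In H3K9me3, COPIA2 was at 1.28 in the terminal row and 3.23 in the internal row, MAX at 2.03 and 3.90, GYPSY6 at 1.64 and 3.08, INVADER1 at 1.93 and 3.49, and Gypsy1 at 0.370 and 0.621. In H3K36me3, BLOOD was at 0.404 in the terminal row and 1.39 in the internal row, a log2 ratio of -1.79. GYPSY5 followed with 1.10 and 2.86, DIVER with 0.704 and 1.48, Copia1 with 0.764 and 1.46, and COPIA2 with 0.430 and 0.822. At BLOOD and GYPSY5 the internal part, not the terminal one, was the row called for H3K36me3. BLOOD_LTR ranked 187 in H3K9me3 and 184 in H3K36me3, and the H3K9me3 values of GYPSY5_LTR and GYPSY5_I were 1.47 and 1.48. BATUMI was one of a number of elements that ran opposite ways in the marks. It had 2.82 and 4.45 in H3K9me3 and 2.22 and 1.27 in H3K36me3, terminal row first. Among the others, the log2 ratios in H3K9me3 and H3K36me3 were -0.95 and 0.27 at MAX and -0.48 and 0.49 at GTWIN. STALKER2 had the reverse signs, 0.67 and -0.04, but its H3K36me3 values were nearly equal (0.888 and 0.912, terminal row first). In KDM4A RNAi cells the log2 ratio of STALKER2 in H3K36me3 was 0.16. Other elements, such as COPIA2, ran the same way in both marks.

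**Figure D5:**
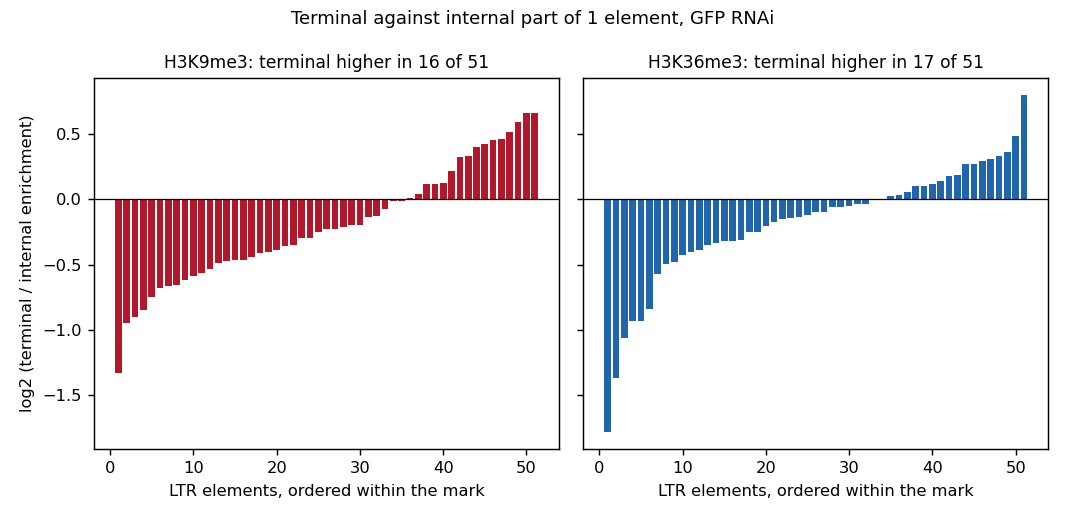
Log2 ratio of the terminal to the internal row for 51 LTR elements in GFP RNAi cells, H3K9me3 left and H3K36me3 right, each ordered by its own values. The lowest ratio is -1.33 (COPIA2) in H3K9me3 and -1.79 (BLOOD) in H3K36me3.

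Most of the called rows were called in KDM4A RNAi cells too. For H3K9me3, 13 of 199 rows were called in KDM4A RNAi cells, against 15 in GFP RNAi cells. In both treatments 11 were called (84.6% and 73.3% of those calls). For H3K36me3, 15 of 199 were called in KDM4A RNAi cells, against 17 in GFP RNAi cells, and 14 in both (93.3% and 82.4%). Each mark's order was nearly the same in both treatments, with a rho of 0.96 in H3K9me3 and 0.97 in H3K36me3. The overlap largely follows from this and is no separate check of the calls. The rows called in GFP RNAi cells alone kept distances of 45.5 to 48.5 points in the same direction in KDM4A RNAi cells, except AAGGAG. The rho between marks was 0.35 in KDM4A RNAi cells and 0.33 in GFP RNAi cells. TART had a distance of -91.4 points in KDM4A RNAi cells and -91.7 in GFP RNAi cells. The terminal row of an LTR element was above the internal row at 17 of 51 elements in KDM4A RNAi cells and 16 in GFP RNAi cells in H3K9me3, and at 23 and 17 in H3K36me3. No replicate values are at hand to weigh these counts. The sign of the ratio was the same in both treatments at 48 of 51 elements in H3K9me3 and 41 in H3K36me3.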

How the data were processed

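H3K9me3 and H3K36me3 were measured by ChIP-seq in S2 cells, in 6 groups of 2 libraries. Per the submitters' processing notes, Bowtie and MACS2 were used, in roles and versions that are not stated. The deposited values are enrichments, averaged by the authors per RNAi treatment per the file headers, with 3 decimals. They were taken here as linear ratios, on which the folds and log2 ratios within a mark rest. What was done about the genome build, repeat library, reads that map to many copies, denominator and depth scaling is not given in the sources used here. Rows were matched by name, and ranks and percentiles were taken over the 199 matched rows of each mark with Python 3.11.15 and pandas 2.3.3, ties averaged. Ranks do not depend on the scale of a table. The code was tested on simulated data. Parts of an element were paired by their names. Depth per library is unknown.

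The members and lists were chosen with earlier results of these data known. The rows named were the 10 largest percentile distances in each direction, the 5 highest and 5 lowest of each mark, the 5 largest differences between the parts of an element per mark, and rows of lists fixed by family (satellites, telomeric, ribosomal, histone, culture-amplified, BEL/Pao, gypsy, and non-LTR and DNA families). Other rows were chosen after their values were seen: the rest of the rows past the 50-point line, the rows just outside it, and those high in both marks that belong to no list. JUAN, X, NINJA and HOPPER, also on the lists, matched no row name. Input values and values per library were not analysed here. The 4 rows without a partner (GYPSY7_LTR, GYPSY8_LTR, GYPSY9_LTR and INVADER5_LTR) were left out. The 3 satellites with units of 11 or 12 bases go by a descriptive name.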

Additional observations from a re-analysis of the deposited data

How the results depend on the processing

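No paired analysis was possible because each mark has 1 value per treatment, a mean without library numbers, and no replicate could be left out. The rho between marks (0.328) was 0.255 without the tandem repeats, which is also the set of identical names, 0.307 with 1 value per element, 0.291 without terminal repeats, and 0.564 as Pearson's r of log2 levels. With 2 choices made after seeing the data, rho was 0.321 without tandem repeats and telomeric rows, and r of log2 levels 0.235 without tandem repeats. At 25 points 48 rows were called for each mark. With log2 levels over each median and a difference of at least 1, 9 rows were called for H3K9me3 and 32 for H3K36me3; the cause was not tested. At 50 points, 15 rows were called for H3K9me3 and 17 for H3K36me3, and ranking all rows of each table gave 14 and 17. Leaving out tandem repeats gave 17 and 17. Because 3 of the 15 rows were satellites, the rows called for H3K9me3 changed with that choice. With classes of 66 rows in place of 50, 30 rows were high in both marks, 12 high in H3K9me3 and low in H3K36me3, and 14 the reverse, by construction of a wider class. With both parts at a level of at least 1, the terminal row was higher at 5 of 16 elements in H3K36me3 and at 11 of 41 in H3K9me3. The depth behind every value is unknown.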
